A study of Mus musculus with 4 samples.

Results

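The TNF superfamily is a set of ligands related to tumour necrosis factor and the receptors that bind them. It was followed here in the RNA of mouse mesenchymal cells that carried either normal histone H3.3 or the lysine-to-methionine mutant K36M. The members were the rows of the expected count matrix whose symbols carry the family's numbered names (Tnfsf or Tnfrsf), except Tnfrsf11b, together with Tnf, Lta, Ltb, Ltbr, Fas, Fasl, Ngfr, Cd27, Cd40, Eda, Edar and Eda2r. This gave 42 of the 20325 genes in the matrix, 16 ligands and 26 receptors. The rule used names only and no measured value, though it was set with earlier results of these data known.

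Most ligands of this family are trimers held in the cell membrane, and some are released by proteases. Their receptors fall into those with an intracellular death domain, which can recruit caspase-8 through FADD or TRADD, those that bind TRAF adaptors and lead to NF-kB, and decoys that bind ligand without a full signalling tail. In connective tissue the family is known for the response of fibroblasts to TNF and TWEAK and for bone resorption through RANK. It is also known for the growth of hair, teeth and glands through ectodysplasin.

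The cells were C3H10T1/2, a multipotent mesenchymal line from C3H mouse embryos, at passage 10 to 15 in medium with 10% serum. Both groups stably expressed an H3.3 with a FLAG-HA tag, wild type in the WT group (n = 2 libraries) and K36M in the K36M group (n = 2 libraries). K36M is known as an inhibitor of H3K36 methyltransferases. The labels used here do not state whether each group was 1 clone or a pool, or whether replicates were separate cultures. The p-values therefore reflect the spread between libraries only, and that spread may be technical.

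Totals were 23343297 to 25322433 expected counts in WT and 34022137 to 56041798 in K36M, which makes K36M 1.85 times as deep. Levels are in CPM, counts relative to library size after TMM scaling between libraries. A floor of 3 counts was 0.121 and 0.13 CPM in the WT libraries and 0.0528 and 0.0863 CPM in the K36M libraries. The 12 mesenchymal markers checked were all tested, with summed levels of 50200 to 50540 CPM in WT and 30280 to 32110 CPM in K36M. Lymphocyte markers, whose cells are the usual site of many members, summed to 0.726 to 1.26 CPM in WT and 2.01 to 2.13 CPM in K36M over 13 genes, of which Cd3e and Ms4a1 had 0 counts in each library. The 2 lymphocyte markers that could be tested were both called higher in K36M, Cd8a 2.19-fold and Lck 3.59-fold, from 15 and 8 counts over both WT libraries. Both were testable only because of their K36M counts, and 38.5% of all tested genes were called higher, so nothing is read from this count. In bulk RNA, fewer cells that express a gene and less RNA per cell cannot be told apart.

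Of the 42 genes, 26 had enough counts to be tested with edgeR, 6 ligands and 20 receptors. At an adjusted p under 0.05, 15 were higher in K36M and 8 lower, and 3 did not pass. Over all 13162 genes tested, 75.6% were called, 38.5% higher and 37.1% lower, so a call by itself was common in this comparison. The median log2 fold change was 0.51 over the 26 members and 0.00347 over all genes tested. At least 2-fold calls numbered 9 higher and 4 lower among the members, against 12.7% and 8.69% of all genes. These counts describe the 26 only, since a gene seen almost only in K36M passes the filter on low counts because it differs. Of the 26, 5 reached the filter's minimum (0.337 CPM in 2 libraries) only through K36M: Eda, with 1 count over both WT libraries, Tnfrsf14 and Tnfrsf19, with 6 each, Tnfrsf26 with 12 and Ngfr with 13. Edar and Tnfrsf13c reached it only through WT.

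**Figure D1:**
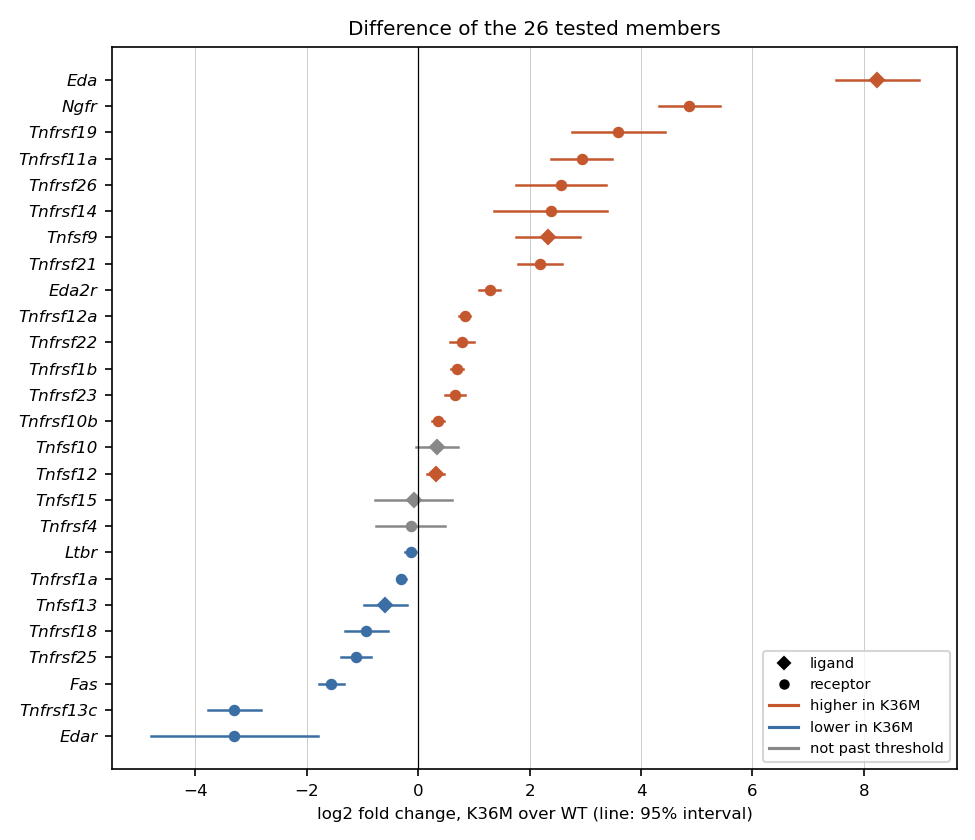
Log2 fold change of each tested member, K36M over WT, on the horizontal axis with its 95% interval (edgeR, n = 2 libraries per group); diamonds are ligands, circles receptors, and colour gives the call. Eda lies farthest to the right at 8.24 and Edar and Tnfrsf13c farthest to the left at -3.30, and the 3 grey genes have intervals that cross 0.

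The largest changes were at genes hardly seen in 1 of the groups. Eda, Ngfr, Tnfrsf19 and Tnfrsf11a went from under 0.5 CPM in both WT libraries to between 1.48 and 8.17 CPM in the K36M libraries, while Edar and Tnfrsf13c went the other way. The upstream sequences of 5 of these genes are shown because they let the genes at the ends of the range be compared, and they were chosen after the values were seen. Each is the 250 bases before the start site in RefSeq's promoter table (build GRCm38.p6, not the mm9 build of the count matrix), written 5′ to 3′ on the gene's strand. Capitals mark every match to 4 motifs, each searched on both strands, with overlapping matches run together. The GC box was searched as GGGCGG. The TATA box was searched as TATAAA. The AP-1 site was TGANTCA, and the NF-kB consensus was the usual degenerate one. All capitals in these 5 are GC boxes.
Eda (chrX:99975356-99975605, plus strand): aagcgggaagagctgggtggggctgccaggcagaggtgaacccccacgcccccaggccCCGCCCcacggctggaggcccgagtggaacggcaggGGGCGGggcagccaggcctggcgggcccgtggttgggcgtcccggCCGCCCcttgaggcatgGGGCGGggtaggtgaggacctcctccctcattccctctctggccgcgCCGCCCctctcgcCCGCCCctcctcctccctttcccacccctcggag
Ngfr (chr11:95587699-95587948, minus strand): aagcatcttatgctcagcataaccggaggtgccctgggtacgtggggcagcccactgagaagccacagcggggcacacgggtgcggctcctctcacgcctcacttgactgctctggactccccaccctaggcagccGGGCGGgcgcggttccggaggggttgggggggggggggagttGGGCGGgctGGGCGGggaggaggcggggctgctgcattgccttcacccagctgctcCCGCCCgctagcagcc
Tnfrsf11a (chr1:105780473-105780722, plus strand): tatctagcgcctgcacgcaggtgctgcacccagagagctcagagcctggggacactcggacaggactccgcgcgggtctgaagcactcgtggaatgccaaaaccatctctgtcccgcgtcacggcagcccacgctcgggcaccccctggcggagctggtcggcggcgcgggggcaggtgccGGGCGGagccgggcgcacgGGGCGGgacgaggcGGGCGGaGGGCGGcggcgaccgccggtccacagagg
Edar (chr10:58675697-58675946, minus strand): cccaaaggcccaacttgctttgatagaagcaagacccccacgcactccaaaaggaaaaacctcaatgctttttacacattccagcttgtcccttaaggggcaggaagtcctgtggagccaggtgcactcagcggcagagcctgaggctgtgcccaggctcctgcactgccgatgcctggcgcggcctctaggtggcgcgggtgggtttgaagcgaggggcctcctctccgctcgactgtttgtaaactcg
Tnfrsf13c (chr15:82224381-82224630, minus strand): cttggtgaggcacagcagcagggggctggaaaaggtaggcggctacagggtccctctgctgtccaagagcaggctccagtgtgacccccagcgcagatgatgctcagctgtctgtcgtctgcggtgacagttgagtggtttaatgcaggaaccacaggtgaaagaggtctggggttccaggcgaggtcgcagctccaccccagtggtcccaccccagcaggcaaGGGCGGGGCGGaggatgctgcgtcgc

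Eda held 6 GC box matches in this window, Ngfr 4 and Tnfrsf11a 4, against 2 in Tnfrsf13c and 0 in Edar. Tnfrsf19, which also rose, has 2 windows in the table, with 0 and 3 matches. Tnfrsf14 rose as well, and its window held 0 matches, as that of Edar did. Of the 42 members 35 matched the table, with 39 windows. In 33 of these, bases just after the start site also occurred in a GENCODE transcript of the gene. Among the genes compared above, they did so for Eda, Ngfr, Tnfrsf11a and Tnfrsf14. They did not for Edar, Tnfrsf13c or either window of Tnfrsf19, so the start sites behind those windows are uncertain. A GC box was present in 9 of 11 windows of members that rose (81.8%) and in 4 of 9 windows of members that fell (44.4%). Over all genes, the share was 57.8% in windows of genes called higher and 56.2% in windows of genes called lower. It was 56.2% of the 11947 windows of tested genes and 32.7% of all 32851 windows. Eda, Ngfr, Tnfrsf14 and Tnfrsf19 among the risen members were testable only because of their K36M counts. Edar and Tnfrsf13c among the fallen members reached the filter's minimum only through WT. The member counts on both sides are therefore a description. The NF-kB consensus was present in 0 of the 11 windows of risen members, 1 of the 9 of fallen members and 8.96% of the windows of tested genes. An AP-1 match stood in 0 of the 11, 2 of the 9 and 4.74% of tested windows, and a TATA box in 2 of the 11, 0 of the 9 and 6.73%. The ratio of observed to expected CpG was 0.53 in Eda, 0.52 in Ngfr, 0.92 in Tnfrsf11a, 0.51 in Edar and 0.41 in Tnfrsf13c, against a median of 0.70 over windows of tested genes. A match is a description of letters, and other upstream regions were not searched. Tnfrsf22, Tnfrsf26, Tnfrsf10b, Tnfsf9, Tnfsf12, Tnfsf4 and Cd40 had no window.

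Few ligands were measurable. Of 16 ligand genes 6 were tested, of which 3 were higher, 1 lower and 2 not past the threshold. Over all genes tested, 38.5% were higher and 37.1% lower. Among the 3, Eda reached the filter's minimum only through K36M. Tnf itself, Fasl, the gene of the Fas ligand, and Tnfsf11, the gene of RANKL, had 0 counts in each of the 4 libraries, as did the receptor gene Tnfrsf13b, which encodes TACI. A count of 0 allows up to 0.0628 CPM over both WT libraries and 0.0328 CPM over both K36M libraries. Lta, which encodes lymphotoxin alpha, had 6 counts in WT and 11 in K36M, and Ltb 2 and 1. The messages of TNF and lymphotoxin were thus at or near the limit of detection in both groups at this depth.

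Eda, the gene of the membrane ligand ectodysplasin, measured 0.0403 and 0 CPM in WT replicates 1 and 2 and 7.59 and 7.17 CPM in K36M replicates 1 and 2. Both K36M libraries lay far above both WT libraries. With 1 count in WT and 680 in K36M the ratio was 355-fold, with a 95% Clopper-Pearson interval of 63.5 to 14050 that covers counting error only (adjusted p = 1.75e-13). The fitted log2 fold change of 8.24 became 11.14 without WT replicate 1 and 7.40 without WT replicate 2. In the authors' deposited table, where 1 is added to each scaled value, Eda is listed at 139.8-fold higher in K36M.

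The receptors of ectodysplasin moved in opposite directions. Eda2r, whose product binds the A2 form of ectodysplasin and has no death domain, stood at 7.99 and 8.6 CPM in WT and 19.2 and 21.4 CPM in K36M, 2.44-fold higher (log2 fold change 1.29 ± 0.0905 SE, adjusted p = 3.06e-10). Edar, the death-domain receptor of the A1 form, stood at 0.363 and 0.348 CPM in WT and 0.0176 and 0.0576 CPM in K36M. With 17 counts in WT and 3 in K36M, Edar was 10.8-fold lower by counts, with a counting interval of 3.14 to 57.8 (adjusted p = 0.000399). All 4 libraries were separated by group for both genes, though Edar was faint throughout and below the 3-count floor in each K36M library. It was too faint to be tested with any 1 library left out. Edaradd, the adaptor that links EDAR to TRAF proteins, had 0 counts in WT and 0.123 and 0.0863 CPM in K36M, too few to test. Which of the forms of ectodysplasin the Eda reads came from cannot be told from counts per gene. Of the epithelial markers, whose tissue is the usual site of Edar, Cdh1 rose from 5.73 ± 0.233 to 23.2 ± 1.26 CPM (SD) while Krt14 fell and Epcam had 0 counts throughout. The 10 epithelial markers summed to 11.2 to 12.5 CPM in WT and 25.5 to 27.1 CPM in K36M. Of the 5 tested, 4 were higher, beside 38.5% higher over all genes. Among those 4, Krt8, Krt19 and Esrp1 reached the filter's minimum only through K36M, so the count is a description. The part of these markers in the results was not tested.

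Of the other ligands, Tnfsf9, which encodes the costimulatory ligand of 4-1BB, rose from 0.525 and 0.348 CPM in WT to 2.4 and 1.99 CPM in K36M, 5.03-fold (log2 fold change 2.33 ± 0.277 SE, adjusted p = 4.54e-07). Its receptor gene Tnfrsf9 had 3 counts in WT and 11 in K36M, a ratio of 1.92 with an interval of 0.506 to 10.7. So the ligand was separated by group and the receptor was too faint to compare.

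Tnfsf12, the gene of TWEAK, a cytokine of tissue repair, had 18.8 and 22.3 CPM in WT against 25.4 and 25.6 CPM in K36M and was 1.24-fold higher (adjusted p = 0.000901). Tnfsf13, the gene of the B cell factor APRIL, had 3.59 and 5.13 CPM in WT against 2.48 and 3.45 CPM in K36M and was 1.5-fold lower (adjusted p = 0.00693). These are neighbours on chromosome 11, and a read-through gene, Tnfsfm13, spans both. Of the 36-base stretches in their GENCODE transcripts, 47.3% for Tnfsf12 and 58.1% for Tnfsf13 also occur in another gene, mostly Tnfsfm13, so the split of reads between them is uncertain. The fall of Tnfsf13 lost its call with WT replicate 2 left out (adjusted p = 0.2) and with K36M replicate 1 left out (0.0874).

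Tnfsf10, the gene of the death ligand TRAIL, stood at 2.58 and 1.82 CPM in WT and 2.75 and 2.88 CPM in K36M (log2 fold change 0.34, 95% interval -0.04 to 0.72, adjusted p = 0.0959). It did not pass the test, and passed it without WT replicate 1 (adjusted p = 0.0233). Tnfsf15, which encodes the T cell costimulator TL1A, stood at 0.807 and 0.565 CPM in WT and 0.74 and 0.518 CPM in K36M (log2 fold change -0.08, 95% interval -0.77 to 0.61, adjusted p = 0.831), with libraries of the groups overlapping. The BAFF gene Tnfsf13b had 7 counts in WT and 32 in K36M and the CD30 ligand gene Tnfsf8 had 1 and 7. Tnfsf14, Tnfsf18 and Tnfsf4 had 1 or 2 counts in all.

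**Figure D2:**
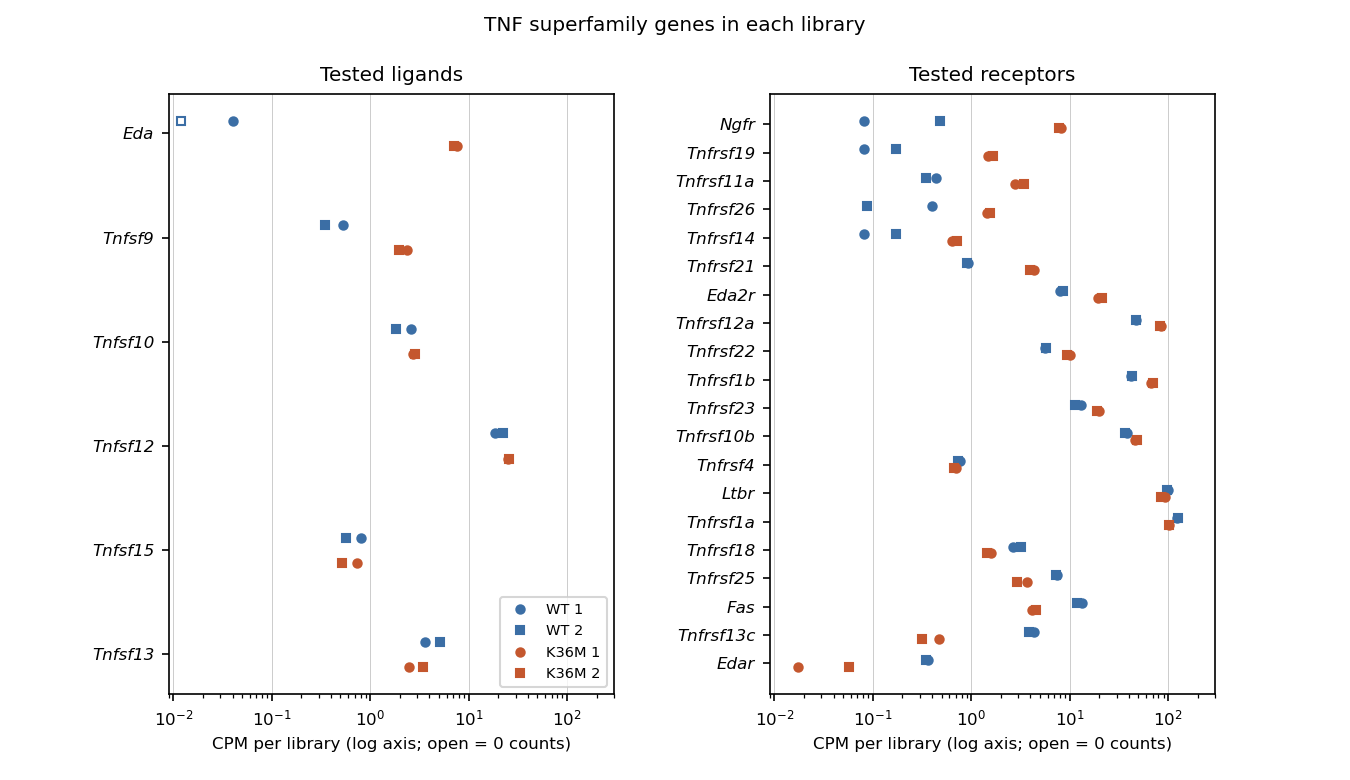
CPM of each tested member in each library on a log axis, ligands left and receptors right, ordered from the largest rise to the largest fall; blue is WT, orange K36M, circles replicate 1 and squares replicate 2, and an open symbol at the left edge stands for 0 counts. The WT replicates of Ngfr lie far apart, at 0.0807 and 0.478 CPM, and those of Tnfsf13 lie at 3.59 and 5.13 CPM, against 2.48 and 3.45 CPM in K36M.

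All 7 death-domain receptors were tested and all 7 were called, 3 higher and 4 lower. Of all tested genes 75.6% were called, 38.5% higher and 37.1% lower. Ngfr was testable only because of its K36M counts and Edar only because of its WT counts, so nothing is read from the count. Ngfr encodes the neurotrophin receptor found on nerve, glial and some mesenchymal cells. It rose from 0.0807 and 0.478 CPM in WT to 8.17 and 7.89 CPM in K36M, 29.2-fold (log2 fold change 4.87 ± 0.26 SE, adjusted p = 5.06e-12). The WT libraries themselves differed, and the fitted fold was 95.4 without WT replicate 2 and 16.7 without WT replicate 1. In the authors' deposited table Ngfr is listed at 24.7-fold higher in K36M. Tnfrsf21, which encodes death receptor DR6, rose from 0.928 and 0.912 CPM to 4.38 and 3.97 CPM, 4.56-fold (adjusted p = 6.1e-09).

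Receptors of the extrinsic death ligands split. Fas, the receptor of the Fas ligand, stood at 13.4 and 12 CPM in WT against 4.14 and 4.55 CPM in K36M and was 2.94-fold lower (log2 fold change -1.56 ± 0.104 SE, adjusted p = 1.43e-10). Tnfrsf10b, the mouse TRAIL death receptor, stood at 37.9 and 36.2 CPM in WT and 46.4 and 48.6 CPM in K36M, 1.28-fold higher (adjusted p = 5.13e-06). The change of Fas was thus well beyond the spread between replicates and more than 2-fold, and that of Tnfrsf10b was small but also separated the groups. Tnfrsf25, which encodes DR3, the receptor of TL1A, fell from 7.38 and 7.34 CPM to 3.71 and 2.94 CPM, 2.17-fold (adjusted p = 2.63e-07).

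Tnfrsf1a, the receptor through which soluble TNF acts in most cells, stood at 125 and 126 CPM in WT against 102 and 102 CPM in K36M and was 1.23-fold lower (log2 fold change -0.30 ± 0.0414 SE, adjusted p = 3.3e-06). Tnfrsf1b, the second TNF receptor, which lacks a death domain, stood at 41.8 and 42.7 CPM in WT and 67.2 and 69.8 CPM in K36M, 1.62-fold higher (log2 fold change 0.70 ± 0.0485 SE, adjusted p = 2.64e-10). The receptors for TNF therefore changed in opposite directions, each with all libraries separated by group. Neither change reached 2-fold.

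Receptors without a death domain that bind TRAF proteins numbered 7, of which 6 rose and 1 fell, beside 38.5% higher and 37.1% lower over all genes. Tnfrsf14 and Tnfrsf19 are among the 6 and were testable only because of their K36M counts, so nothing is read from the count. Tnfrsf12a, which encodes the TWEAK receptor Fn14, a gene of injured tissue, rose from 46.9 and 47 CPM to 85.6 and 82 CPM, 1.79-fold (log2 fold change 0.84 ± 0.0481 SE, adjusted p = 1.54e-11). With Tnfsf12 slightly higher as well, the ligand and receptor of this pair were both called higher. The small rise of Tnfsf12 carries the uncertain split of reads given above. Its log2 fold change of 0.31 became 0.19 without WT replicate 1 and 0.44 without WT replicate 2. Ltbr, the lymphotoxin beta receptor, stood at 99.4 and 97.1 CPM in WT against 93.2 and 85.3 CPM in K36M and was 1.1-fold lower (adjusted p = 0.0175). That call was lost without WT replicate 1 (adjusted p = 0.109), without K36M replicate 2 (0.149), under upper quartile scaling (0.0888) and total counts (0.113), and with the DESeq2 Wald test (0.0576).

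Tnfrsf11a encodes RANK, the receptor that drives osteoclast formation. It rose from 0.444 and 0.348 CPM to 2.8 and 3.43 CPM, 7.65-fold (log2 fold change 2.94 ± 0.263 SE, adjusted p = 9.69e-09), while its ligand gene Tnfsf11 had no count. Tnfrsf19, which encodes the orphan receptor TROY, known in embryonic skin and nervous system, rose from 0.0807 and 0.174 CPM to 1.48 and 1.67 CPM, 12.1-fold (adjusted p = 1.7e-07), or 18.6-fold without WT replicate 2. Tnfrsf14, which encodes HVEM, the receptor of LIGHT, rose from 0.0807 and 0.174 CPM to 0.634 and 0.72 CPM, 5.2-fold (adjusted p = 0.000234), or 7.97-fold without WT replicate 2. These genes were low in both groups, and with every library thinned to the smallest total all 3 were still called higher.

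The decoy-like receptors lie side by side on mouse chromosome 7, and all 3 rose, Tnfrsf26 being testable only because of its K36M counts. Over all tested genes 38.5% were called higher. Tnfrsf22 and Tnfrsf23 encode TRAIL-binding receptors without a death domain. Tnfrsf22 stood at 5.69 and 5.74 CPM in WT and 10.2 and 9.5 CPM in K36M, 1.73-fold higher (adjusted p = 1.41e-06), and Tnfrsf23 at 13.1 and 11.3 CPM and 19.7 and 19 CPM, 1.58-fold higher (adjusted p = 1.04e-06). The pair shares sequence: 34.8% of the 36-base stretches of Tnfrsf22 and 23.9% of those of Tnfrsf23 occur in another gene, mostly each other, so their separate values are uncertain. Tnfrsf26, their neighbour, shares 0.157% and rose from 0.403 and 0.0869 CPM to 1.46 and 1.55 CPM, 5.91-fold (adjusted p = 7.46e-06), with fitted folds of 16.6 without WT replicate 1 and 3.68 without WT replicate 2. Other neighbouring members did not all share a call: on chromosome 4 Tnfrsf18 fell while Tnfrsf4 beside it did not pass, and Tnfsf13 and Tnfsf12 were called in opposite directions.

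Receptors of lymphocyte costimulation were faint. Of 9, 3 were tested, with 2 lower and 0 higher, beside 37.1% lower and 38.5% higher over all genes. Among the 2, Tnfrsf13c reached the filter's minimum only through WT. Tnfrsf13c, the BAFF receptor gene of B cells, fell from 4.32 and 3.87 CPM in WT to 0.475 and 0.317 CPM in K36M, 9.83-fold (log2 fold change -3.30 ± 0.223 SE, adjusted p = 1.68e-10), and is listed at 10.1-fold lower in the authors' deposited table by the inverse of its fold. The B cell marker Ms4a1 had no count in any library, WT included. Tnfrsf18, which encodes GITR, fell from 2.66 and 3.17 CPM to 1.58 and 1.44 CPM, 1.9-fold (adjusted p = 0.000146). Tnfrsf4, the OX40 gene, stood at 0.767 and 0.739 CPM in WT and 0.704 and 0.662 CPM in K36M (log2 fold change -0.13, 95% interval -0.75 to 0.49, adjusted p = 0.703). Cd27 had 13 counts in WT and 22 in K36M, and Tnfrsf8, the CD30 gene, 0 and 8, too few to test. Against a floor of 3 counts over both WT libraries the ratio for Tnfrsf8 was 1.39. That ratio leaves out the counting error of the 8 K36M counts, so it is not a lower bound. Cd40 and Tnfrsf17 had 1 or 2 counts in all.

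Per kilobase of transcript, the most abundant receptor genes were the same 3 in both groups. With the lengths used here, their order differed. In WT, Tnfrsf1a stood first at 58.1 CPM per kb, followed by Tnfrsf12a at 47.7 and Ltbr at 46.6. In K36M, Tnfrsf12a stood first at 85.2 CPM per kb, followed by Tnfrsf1a at 47.2 and Ltbr at 42.4. Lengths were those of the whole longest protein-coding GENCODE transcript, 2.156 kb for Tnfrsf1a, 0.984 kb for Tnfrsf12a and 2.107 kb for Ltbr. The order of these 3 in WT depends on the lengths taken and is not settled, nor is the change of order. Below them, Fas went from rank 6 to rank 8 of 20, Tnfrsf13c from 10 to 19, Ngfr from 17 to 10 and Eda2r from 11 to 7.

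**Figure D3:**
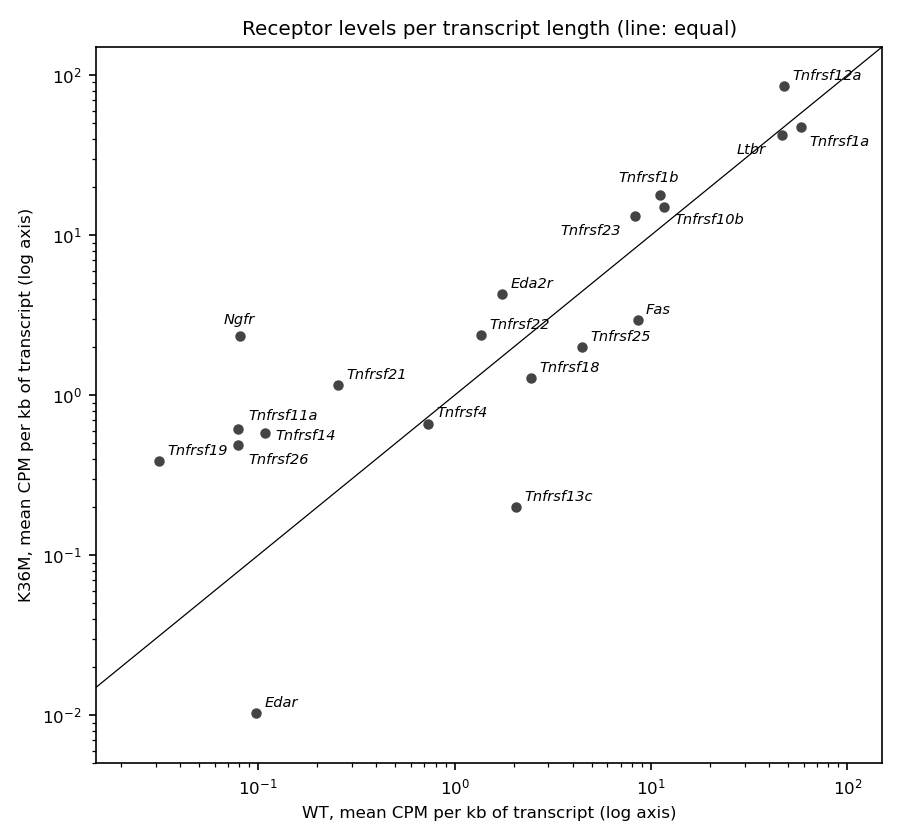
Mean CPM per kilobase of transcript of the 20 tested receptors in WT (horizontal, log axis) and K36M (vertical, log axis), each point 1 gene, with the line of equal levels. Tnfrsf1a, Tnfrsf12a and Ltbr sit at the upper right in both groups, Ngfr lies well above the line, and Edar and Tnfrsf13c lie well below it.

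Of 24 adaptors and death pathway genes, 23 were tested, with 11 higher, 10 lower and a median log2 fold change of 0.09, beside 38.5% higher, 37.1% lower and a median of 0.00347 over all genes. At a mean of at least 1 CPM, the largest rises in this list were in the kinase and the pore former of necroptosis, the lytic death that can follow TNF receptor signals. Ripk3 rose from 1.49 and 1.26 CPM to 30.2 and 29.6 CPM, 21.6-fold (log2 fold change 4.43, adjusted p = 7.2e-17). Mlkl rose from 0.605 and 1.43 CPM to 11.3 and 12.9 CPM, 11.9-fold (adjusted p = 4.96e-12), or 19.7-fold without WT replicate 2. Both were separated by group with K36M replicates close to each other. The adaptor gene Traf1, below that mean and named after its values were seen, was also called higher, with 3 counts in WT and 96 in K36M. Birc3, an inhibitor of apoptosis and NF-kB target, rose 2.54-fold (adjusted p = 7.12e-09) and Bid, which links caspase-8 to mitochondria, 1.77-fold (adjusted p = 9.93e-11).

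The shared initiators moved little. Ripk1 was 1.19-fold lower and Casp8 1.16-fold lower (adjusted p = 7.79e-05 and 0.00475), and Tradd and Fadd were 1.13-fold and 1.18-fold higher (adjusted p = 0.0193 and 0.0073). Of these, Casp8 lost its call without K36M replicate 1 (adjusted p = 0.111) and Fadd under the authors' factors (0.0732). Tradd lost it without WT replicate 1 (0.107), without K36M replicate 1 (0.297), under the authors' factors (0.206) and with the DESeq2 Wald test (0.087). Each of these 4 genes differed by less than 1.2-fold between the groups.

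Of 23 genes of the NF-kB machinery, all were tested, 10 higher, 7 lower and 6 not past the threshold, with a median of 0.04. Over all genes, 38.5% were higher and 37.1% lower, with a median of 0.00347. Map3k14, the NIK kinase of the non-canonical branch that lies below LTBR, Fn14 and RANK, rose from 10 and 12.6 CPM to 38.9 and 37.2 CPM, 3.39-fold (log2 fold change 1.76, adjusted p = 3.77e-13). Nfkb2, whose p100 product NIK signalling cuts, rose from 46.1 and 44.2 CPM to 98.3 and 92.3 CPM, 2.11-fold (adjusted p = 6.75e-13). Relb, its partner, rose 1.69-fold (adjusted p = 2.82e-07). Of the canonical subunits, Rela rose 1.3-fold and Rel 1.39-fold and Nfkb1 fell 1.15-fold (adjusted p = 5.36e-07, 0.00769 and 0.00115). The call of Rel was lost without WT replicate 1 (adjusted p = 0.0736) and with the DESeq2 Wald test (0.0879). The feedback gene Tnfaip3, which encodes A20, rose 1.82-fold, the deubiquitinase gene Otud7b 1.75-fold, and Bcl3 1.71-fold (adjusted p = 0.0023, and 0.0803 without WT replicate 1).

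**Figure D4:**
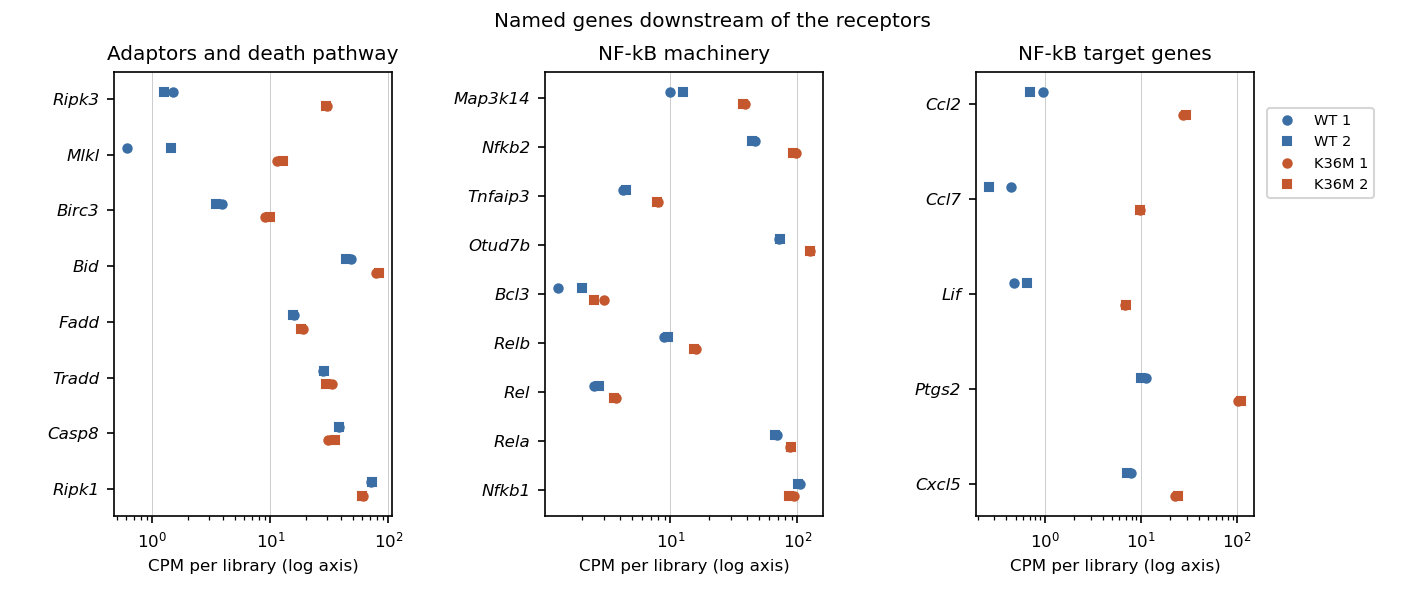
CPM per library on log axes for the named adaptor and death pathway genes (left), NF-kB machinery (middle) and NF-kB target genes (right), ordered from the largest rise to the largest fall; blue is WT, orange K36M, circles replicate 1 and squares replicate 2. Ripk3 goes from near 1.4 to near 30 CPM, while Casp8, Tradd and Fadd have WT and K36M symbols side by side.

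Of 30 genes known as NF-kB targets, 20 were tested, with 13 higher (65.0%), 5 lower and a median of 1.004, beside 38.5% higher, 37.1% lower and a median of 0.00347 over all genes. Of the 13, Ccl5, Ccl7, Lcn2, Mmp3 and Mmp9 reached the filter's minimum only through K36M, so the count is a description. The 5 called genes of largest change at a mean of at least 1 CPM all rose. Ccl7 rose from 0.444 and 0.261 CPM to 9.79 and 9.87 CPM, 27.4-fold (adjusted p = 8.18e-14), and Lif from 0.484 and 0.652 CPM to 6.87 and 7.05 CPM, 12.2-fold (adjusted p = 3.29e-12). Cxcl5, a neutrophil chemokine gene, rose 3.12-fold, next to the monocyte chemokine gene Ccl2 at 33.9-fold and the prostaglandin synthase gene Ptgs2 at 9.96-fold. The 5 genes called lower, named after their values were seen, were Vcam1, Sod2, C3, Nfkbiz and Il6, with log2 fold changes of -0.11, -0.30, -0.61, -0.88 and -1.73. Macrophage and blood markers moved beside this list, from sums of 8.47 to 9.34 CPM in WT to 41.2 to 42.6 CPM in K36M over 14 genes. Of the 6 tested, 4 were higher. Among those 4, Hba-a1 and Csf1r reached the filter's minimum only through K36M, so this count too is a description. The alpha globin gene Hba-a1 made up 25.3 to 26.7 CPM of the K36M sums, and Mpo, Hba-a2 and Hbb-b1 had no count. The macrophage genes Lyz2, Csf1r and Cd14 were also called higher. Lyz2 rose from 1.9 and 1.65 CPM to 6.41 and 6.24 CPM, Csf1r from 0.282 and 0.0869 CPM to 0.511 and 0.46 CPM, and Cd14 from 3.67 and 4.34 CPM to 6.09 and 6.5 CPM, while Fcgr1 fell from 1.09 and 1.35 CPM to 0.405 and 0.489 CPM. The part of these markers in the result was not tested.

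Of 6 genes of ligand and receptor shedding, 5 were tested, with 3 lower and 0 higher, beside 37.1% lower and 38.5% higher over all genes. Adam17, the protease that releases TNF from the membrane, fell from 130 and 129 CPM to 80.8 and 82 CPM, 1.59-fold (adjusted p = 5.51e-11). Adam10 fell 1.25-fold (adjusted p = 2.83e-07), and Timp3, an inhibitor of ADAM17, fell 3.07-fold (adjusted p = 1.37e-16). The protease and its inhibitor were thus both lower in K36M.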

How the data were processed

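RNA of 4 libraries, WT and K36M with replicates 1 and 2 by their titles, was read as RSEM expected counts, which the authors deposited for 20325 gene symbols. Bowtie 1.0.0, RSEM 1.2.12 and build mm9 are named by the submitters' processing notes, and EBSeq by the file header. A second deposited table of 594 genes holds the authors' log2 values, which equal the log of scaled expected counts with 1 added (largest difference 5e-09), and the authors' linear fold ratio between the group averages of those values after unlogging. Strand and read length: not given in the sources used here.

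After rounding, edgeR 4.0.16 (R 4.3.3) compared K36M with WT by its quasi-likelihood test after filterByExpr and TMM, with 2 residual and 15.7 prior degrees of freedom. P-values were adjusted by Benjamini-Hochberg over 13162 genes. The replicate number did not enter the fit. The fit was also run on simulated counts, which held no replicate effect, so that run cannot test leaving the number out. DESeq2 1.42.0, limma-voom (limma 3.58.1), other scalings and filters, thinning and leaving out each library were alternatives. Standard errors came from the F statistic. Members, lists and tests were chosen with earlier results of these data known. Every tested member is named, as are 9 core pathway genes and, in each pathway list, up to 5 called genes of largest change at a mean of at least 1 CPM. Some genes of these lists are counted but not reported here by name. GENCODE M21 gave transcript lengths and shared 36-base stretches, and RefSeq (GRCm38.p6) gave promoters and neighbours.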

Additional observations from a re-analysis of the deposited data

How the results depend on the processing

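Over 14 alternatives, 684 of the values of 52 named genes kept their direction and their side of the threshold, 16 lost their call, 1 gained it and 3 changed sign. Genes that changed sign were not called in any setting: Tnfrsf4 was 0.11 when thinned to the smallest library, and Tnfsf15, at -0.08 with all libraries, ranged from -0.41 to 0.19 when 1 was left out. Members called higher numbered 15 to 16 and those called lower 6 to 8, except at a mean of at least 5 CPM, where 7 were higher and 4 lower because 15 of the 26 were not tested. Called genes of shedding numbered 3, but 4 with no filter on low counts and 5 under the authors' factors, and 3 to 5 when 1 library was left out, 5 being without K36M replicate 1; the cause was not tested. With a replicate block, 15 members were higher and 8 lower, beside 5008 higher and 4796 lower of all 13162 genes tested. Among settings that kept all 4 libraries, calls over all genes ranged from 3956 to 5542 higher and from 3955 to 5709 lower. The member counts are therefore a description of the members only. Labels do not say that a number marks a shared culture, and same-numbered libraries did not deviate together over genes (r = 0.000804). Eda, Ngfr, Tnfrsf14, Tnfrsf19, Tnfrsf26 and Mlkl moved by over 1.5-fold without 1 WT library. Edar was too faint to be tested when thinned, at a mean of at least 5 CPM, or with any 1 library left out. Faint genes such as Cd27 and Tnfrsf9 are limited by depth.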
